A study of Homo sapiens with 6 samples.

Results

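The mRNAs of the core spliceosome proteins were examined for binding by eukaryotic initiation factor 4B (eIF4B). The set holds the protein-coding genes of GENCODE release 44 whose symbol begins with SNRP (followed by a letter from A to G, an N or a digit), or with SF3A, SF3B, PRPF or LSM followed by a digit. It has 47 genes of 13668 protein-coding genes with a count in either cell line. All 47 genes had counts in DoHH-2 and 45 had counts in GM01953, where LSM11 and LSM12 had 0. The rule used names and no measured value. It does not take SNRNP70 and SNRNP200, and it takes 6 LSM genes (LSM1, LSM10, LSM11, LSM12, LSM14A and LSM14B) whose proteins act outside the spliceosome, so that 41 members encode spliceosome proteins in the strict sense.

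eIF4B binding was mapped by iCLIP, a cross-linking assay that resolves single nucleotides. In it, UV light joins protein and RNA in living cells, an antibody to eIF4B recovers the complexes, and reverse transcription stops at the joined nucleotide. The cells were DoHH-2, a diffuse large B-cell lymphoma (DLBCL) line, with 4 replicates, and GM01953, a B-cell line of non-cancerous origin that served as the control, with 2 replicates. No cells were treated, and each group is 1 cell line. The authors pooled the replicates into 1 table per cell line, so values carry no SD and no test between the cell lines can be made. Intervals are exact 95% intervals (Poisson for counts, Clopper-Pearson for shares, conditional binomial for ratios) and cover counting error only, since the spread between cultures and PCR duplicates that were left are not in them. A count is 1 cDNA, and a gene's count is the sum over its positions. CPM are counts per 1000000 counts of the cell line's table.

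eIF4B is an initiation factor that binds RNA and stimulates the helicase eIF4A, which unwinds the 5′ UTR as the small ribosomal subunit scans towards the start codon. The spliceosome removes introns from pre-mRNA in the nucleus and is built from small nuclear ribonucleoproteins. The Sm proteins form a ring around the U1, U2, U4 and U5 RNAs, the LSM2 to LSM8 proteins form a like ring on the U6 RNA, the SF3A and SF3B proteins belong to the U2 particle that recognizes the branch site, and the PRPF proteins act in the tri-snRNP, in its activation and in catalysis. The counts here lie on the mRNAs that encode these proteins, and they do not measure binding of eIF4B to the spliceosome.

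The positions with the most counts show the kind of sequence at which reads stopped. Of the 8 members with the highest single mRNA position in DoHH-2, 7 are given with 25 nt of the reference sequence (GRCh38, strand in brackets) on the mRNA, in lower case with the nucleotide at the cross-link in a capital. LSM3 was added after its values were seen, because its highest position was the same nucleotide in both cell lines. T stands for U in the RNA.
SNRPF, chr12:95859069-95861184 (+), spanning the junction of exons 1 and 2, with the start codon at nt 6 of the window: ttacgatgagttTacccctcaatcc
SNRPB, chr20:2461682-2461706 (-), 3′ UTR: catagtccttttAtctccttgtggc
SNRPE, chr1:203861641-203861665 (+), with the start codon at nt 20 of the window: ctctttgtgaaaTtccaccatggcg
SNRPG, chr2:70293670-70293694 (-), 5′ of the start codon: gtgcgttgcgttCcaaggcatctgt
SNRPD3, chr22:24556008-24556032 (+), 5′ UTR: actcacgccttcGccgtagcatctt
SF3B1, chr2:197423886-197423910 (-), CDS: gggcctcgattcTacaggttattat
SF3B5, chr6:144094923-144094947 (-), 3′ UTR: tggcgtctcgttTttggctaattga
LSM3, chr3:14198288-14198312 (+), 3′ UTR: ctaaatggtattTtcatttttctca

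The SNRPF position lay 7 nt after the A of the start codon and held 31 counts in DoHH-2 and 1 in GM01953. It was the highest position of any member, against 3525 counts at the highest position of the whole DoHH-2 table. The SNRPE position lay 7 nt before the start codon (20 counts) and the SNRPG position 33 nt before it (20 counts). The SNRPD3 position lay 70 nt before the start codon (18 counts). Those of SNRPB (21 counts) and SF3B5 (16 counts) lay 235 nt and 302 nt after the stop codon. The position of SF3B1 (17 counts) lay within the CDS, 104 nt after the A of the start codon. Of these 7 nucleotides, those of SNRPF and SNRPG had 1 count each in GM01953 and the other 5 had 0. The LSM3 nucleotide held 12 counts in DoHH-2 and 5 in GM01953, the highest of LSM3 in either cell line.

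DoHH-2 had 2033156 counts at 1179243 positions and GM01953 had 167197 counts at 78474 positions, a ratio of 12.2 in depth. Replication-dependent histone genes took 15.2% of DoHH-2 counts and 9.91% of GM01953 counts. Both lines had counts on the B-cell marker genes MS4A1 (13 counts in DoHH-2 and 152 in GM01953), CD79A (71 and 43), CD79B (99 and 7) and PAX5 (554 and 58), and 0 on the T-cell genes CD3D, CD3E and CD3G and the myeloid genes CD14, LYZ and CSF1R. Reads rarely started close to the 3′ end of an exon. On member exons other than the last and of at least 120 nt, DoHH-2 held 2.10 counts per kb at 0 to 19 nt from the exon's 3′ end, 22.1 at 20 to 39 nt, 146 at 40 to 79 nt and 132 at 80 to 119 nt. The same values over all protein-coding genes were 1.17, 9.24, 42.0 and 45.3. Reads across exon junctions were thus largely absent from the tables, and the last 40 nt of each exon were close to blind. The nt outside these stretches are called readable below. They made up 64.4% (SNRPF) to 98.7% (LSM8) of a member's mRNA, with a median of 84.1%, and 8 members had an exon of at most 40 nt, on which no nt was readable.

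The members held 11762 counts at 7544 positions in DoHH-2 and 793 counts at 469 positions in GM01953. These were 5785 CPM (5681 to 5891) in DoHH-2 and 4743 (4419 to 5085) in GM01953, a ratio of 1.22 (1.14 to 1.31). The median member had 218 counts in DoHH-2 and 14 in GM01953, beside 55 and 6 for all protein-coding genes with a count. Per kb of mRNA the medians were 85.0 and 4.79 counts for members and 13.6 and 1.57 for all genes with a count on the mRNA. Per readable kb they were 87.4 and 5.89 for members and 15.3 and 1.72 for all genes. RNA abundance was not analysed here, so counts on a gene cannot be divided into the level of its mRNA and binding per molecule.

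A gene was called bound when its positions with an FDR below 0.05 (from the authors' comparison of the counts around a position with permuted positions in the same gene) held more than 20 counts. The authors also required enrichment of a gene in iCLIP over total RNA, which was not applied here, so a bound gene can be one with much mRNA. In DoHH-2, 40 of 47 members were bound (85.1%, 71.7 to 93.8), beside 33.3% of all protein-coding genes with a count and 48.5% of those with more than 20 counts. The bound members included the 8 Sm genes, both genes of the U1 proteins, the 11 genes of the U2 proteins and the 7 genes of the U6 ring. The 7 that were not bound were PRPF38B, PRPF39, PRPF40B, PRPF18, LSM1, LSM11 and LSM12. In GM01953, 7 of 47 members were bound (14.9%, 6.20 to 28.3), beside 8.34% of all protein-coding genes with a count. They included SNRPB, SNRPA, SF3B3, LSM2, LSM6 and LSM14A, and each of these was also bound in DoHH-2. Of the 16 members with more than 20 counts in GM01953, 43.8% were bound, beside 56.7% of all genes with more than 20 counts there. With no FDR threshold, 47 members had more than 20 counts in DoHH-2 (beside 68.6% of all genes with a count) and 16 in GM01953 (beside 14.7%). When the DoHH-2 counts were thinned at random to the GM01953 total, 15 members did (beside 14.9%). The number bound at an FDR below 0.05 was not computed at equal depth.

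**Figure D1:**
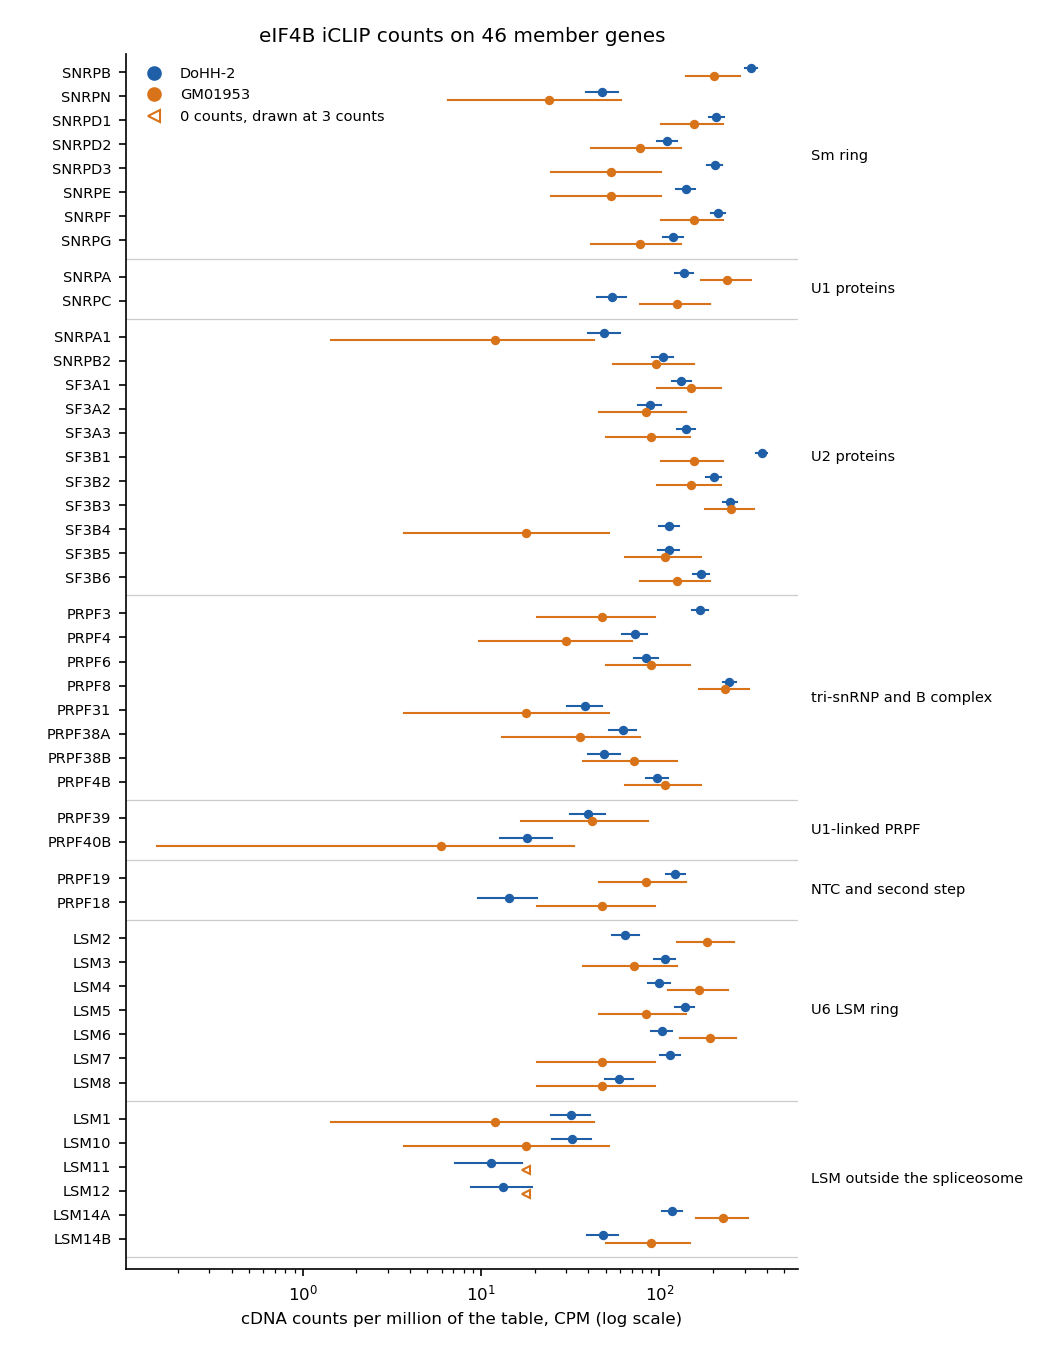
cDNA counts in CPM (log axis) for 46 of the 47 member genes, grouped by the role of the protein. Points are the pooled value of DoHH-2 (blue) and GM01953 (orange), lines are exact Poisson 95% intervals, and open triangles stand for 0 counts, drawn at 3 counts. Of the genes drawn, SF3B1 is highest in DoHH-2 (376 CPM) and SF3B3 in GM01953 (251 CPM), LSM11 and LSM12 are the members with 0 counts in GM01953, and the GM01953 intervals are wider throughout.

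In DoHH-2 the Sm genes, whose proteins form the ring of the spliceosomal particles, had the most counts per length of the role groups. These 8 genes held 2785 counts in DoHH-2, with a median of 281 counts per kb of mRNA beside 85.0 over all members. SNRPF, the shortest member mRNA with 452 nt, had the highest value with 934 counts per kb. Of the Sm genes, SNRPB (585 counts per kb), SNRPD2 (431) and SNRPG (386) followed. SNRPN had the lowest value of the Sm genes (58.6 counts per kb). In GM01953 the median of the Sm genes was 13.8 counts per kb, below the 25.9 of the 2 genes of the U1 proteins. SNRPB held 662 counts in DoHH-2 (613 to 714) and 34 in GM01953, or 326 and 203 CPM. Of the SNRPB counts, 233 in DoHH-2 and 25 in GM01953 were also listed for RP4-734P14.4, a protein-coding gene that overlaps it, and cannot be divided between the genes. Of the 97 counts of SNRPN in DoHH-2, 95 were also listed for another gene, 90 of them for RP11-701H24.9 and 82 for SNURF, whose reading frame lies upstream on the same transcript. On the SNRPN mRNA, 62 of the 86 counts were in the 5′ UTR, so that the values of SNRPN are uncertain as those of this gene.

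The genes of the U1 proteins SNRPA, which binds a stem-loop of the U1 RNA, and SNRPC, which helps U1 pair with the 5′ splice site, had 280 (248 to 315) and 110 (90.4 to 133) counts in DoHH-2 and 40 and 21 in GM01953. These were 138 and 54.1 CPM in DoHH-2 and 239 and 126 CPM in GM01953. Their sum was 192 CPM in DoHH-2 (173 to 212) and 365 in GM01953 (279 to 469), a ratio of 0.526 (0.401 to 0.70). They were the role group with the lowest ratio. SNRNP70, a further U1 protein gene that the naming rule does not take, had 401 counts in DoHH-2 and 23 in GM01953. Its ratio was 1.43 (0.942 to 2.29), and it was added here after its value was seen.

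The U2 proteins held 3540 counts in DoHH-2 and 207 in GM01953. SF3B1, the subunit that contacts the branch site and is mutated in several blood cancers, had 764 counts in DoHH-2 (711 to 820) and 26 in GM01953, or 376 and 156 CPM. Of the 26 counts in GM01953, 14 lay in exons of other SF3B1 transcripts and 12 on the MANE Select mRNA, the transcript that NCBI and Ensembl chose to represent the gene. SF3B3, a scaffold subunit of SF3B, had 507 counts in DoHH-2 (464 to 553) and 42 in GM01953, or 249 and 251 CPM. SF3B6, which sits next to the branch site, and SF3B5, a small subunit of SF3B, had high values per length with 502 and 332 counts per kb of mRNA. SF3B4 had 231 counts in DoHH-2 and 3 in GM01953.

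In the tri-snRNP and B complex group, PRPF8, the large protein at the catalytic centre, had 502 counts in DoHH-2 (459 to 548) and 39 in GM01953, or 247 and 233 CPM. On its mRNA of 7280 nt these were 60.0 counts per kb in DoHH-2. PRPF3, a protein of the U4/U6 particle, had 344 and 8 counts. The 8 genes of this group had a median of 39.6 counts per kb. PRPF40B, which is linked to U1, had 37 counts in DoHH-2 and 1 in GM01953. PRPF19, a ubiquitin ligase of the complex named after it, had 250 and 14 counts, and PRPF18, a factor of the second step of splicing, had 29 and 8, of which 24 and 6 were also listed for an overlapping gene.

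The 7 genes of the U6 ring lay between 121 (LSM8) and 282 (LSM5) counts in DoHH-2 and between 8 (LSM7 and LSM8) and 32 (LSM6) in GM01953. Their summed value was 687 CPM in DoHH-2 (652 to 724) and 795 in GM01953 (666 to 943), and the intervals overlapped. Of the 6 LSM genes outside the spliceosome, LSM14A, a protein of processing bodies, had 240 counts in DoHH-2 (211 to 272) and 38 in GM01953, or 118 and 227 CPM. LSM11, a protein of the U7 particle that processes histone mRNAs, had 23 and 0 counts, and LSM12 had 27 and 0. A count of 0 in GM01953 was taken to allow 3 counts, or 17.9 CPM, while the exact interval for 0 counts reaches 22.1 CPM there. Both limits are above the DoHH-2 values of 11.3 and 13.3, so that no difference was detectable for these genes at this depth.

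A ratio of CPM, DoHH-2 over GM01953, was computed for the 22 members with at least 20 counts in GM01953 or at least 244 in DoHH-2, the number that matches 20 at the depth of GM01953. In place of a test, which pooled tables do not allow, a gene was called when the values differed by more than 2 times. In this set 4 members were more than 2 times higher in DoHH-2, beside 18.8% of all protein-coding genes with enough counts, and 2 were more than 2 times higher in GM01953, beside 21.6%. With 18.2% of its members called higher in DoHH-2, the set was close to the background in that direction. The median ratio was 1.36, beside 1.04 over all 2141 genes with enough counts. A gene could enter by its count in the cell line where it was higher, among members and all genes alike. The numbers called and the medians were therefore in part fixed by this filter.

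Those higher in DoHH-2 were SNRPD3 with a ratio of 3.81 (1.99 to 8.39), PRPF3 with 3.54 (1.77 to 8.26), SNRPE with 2.60 (1.35 to 5.75) and SF3B1 with 2.42 (1.64 to 3.72). SNRPD3 and SNRPE had 9 counts each in GM01953 and PRPF3 had 8, so that these 3 genes entered the set by their DoHH-2 count alone. The high ratios of these 3 genes were thus in part fixed by the filter. Of the genes with at least 20 counts in GM01953, SF3B1 and SNRPB (1.60, 1.13 to 2.33) had the highest ratios. The lowest ratios were those of LSM2 (0.348, 0.233 to 0.532), SNRPC (0.431, 0.268 to 0.724) and LSM14A (0.519, 0.368 to 0.752). LSM2 had 131 counts in DoHH-2 and 31 in GM01953, or 64.4 and 185 CPM. LSM6 (0.537, 0.369 to 0.806) and LSM4 (0.596, 0.40 to 0.920) also had intervals below 1. LSM2, SNRPC, LSM14A, LSM6 and LSM4 all entered the set by their GM01953 count alone, so that their low ratios were in part fixed by the filter. SNRPA (0.576, 0.412 to 0.823) passed the limit in both cell lines. SF3B3 (0.993, 0.724 to 1.39) and PRPF8 (1.06, 0.764 to 1.51) stood close to equal levels.

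The summed ratio of 1.22 depended on how counts were taken. It was 1.63 with positions of FDR below 0.05 alone, where 8 of 16 members were more than 2 times higher in DoHH-2 (beside 27.8% of all genes) and 2 in GM01953 (beside 36.7%). It was 1.07 when each position was counted once, whatever its number of cDNAs. With positions counted once, 1 of 7 members with enough positions was more than 2 times higher in DoHH-2 (beside 20.5% of all genes) and 0 in GM01953 (beside 24.8%).

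Counts were placed on the MANE Select mRNA, which took 89.1% of the members' counts in DoHH-2 and 88.1% in GM01953, beside 75.6% and 74.1% over all protein-coding genes. The mRNA was divided into 5′ UTR, start codon (50 nt to each side), CDS, stop codon (50 nt to each side) and 3′ UTR. In DoHH-2 the 10479 counts on member mRNAs were divided as follows. The CDS took 42.1% (41.2 to 43.1) and the 3′ UTR 24.4% (23.6 to 25.2). The start codon region took 15.1% (14.5 to 15.8), the 5′ UTR 9.82% (9.26 to 10.4) and the stop codon region 8.51% (7.98 to 9.06). All protein-coding genes without the replication-dependent histones had 43.9% in the CDS, 32.6% in the 3′ UTR, 9.46% in start codon regions, 8.44% in 5′ UTRs and 5.65% in stop codon regions. The member share around the start codon thus exceeded that of these genes, which include the members, by more than the counting error. Start codon regions made up 3.21% of the members' mRNA length, beside 2.45%. Of the 1587 member counts there, 728 were on the 8 Sm genes (27.4% of their mRNA counts). The spread between genes is not part of the interval. In GM01953 the member share around the start codon was 21.6% (18.6 to 24.8) of 699 counts, beside 12.9%. The member share of the 5′ UTR was 10.2% (8.02 to 12.6), beside 13.7%. The 5′ UTR share of members was therefore above the background in DoHH-2 and below it in GM01953. The direction in GM01953 depended on the measure: with codon regions of 25 nt to each side the 5′ UTR share was 17.9%, beside 14.5% of all protein-coding genes with histones, and per readable length the members stood at 4.47 times the whole mRNA, beside 3.72. The spread between cultures is not part of these intervals.

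Per length and on readable nt, the members' start codon regions held 467 counts per kb in DoHH-2, 5.81 times the value over the whole mRNA, and their 5′ UTRs held 371, or 4.62 times. The same ratios over all coding genes without histones were 4.23 and 2.26. The CDS of members held 103 counts per kb (1.29 times), the stop codon regions 191 (2.38 times) and the 3′ UTRs 33.1 (0.412 times). The Sm genes carried much of this pattern, with 1434 counts per kb around the start codon (6.90 times their whole mRNA). Without them the start codon regions stood at 4.44 times and the 5′ UTRs at 3.66 times the whole mRNA, so that the start codon value was close to the background of 4.23 and the 5′ UTR value remained above 2.26. In GM01953 the start codon regions of members stood at 7.80 times the whole mRNA, beside 5.90 over all coding genes without histones, on 135 counts. Without the Sm genes they stood at 6.97 times there, on 92 counts, which is above that background. No interval was computed for these values, so whether they exceed the background by more than the counting error was not tested.

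**Figure D2:**
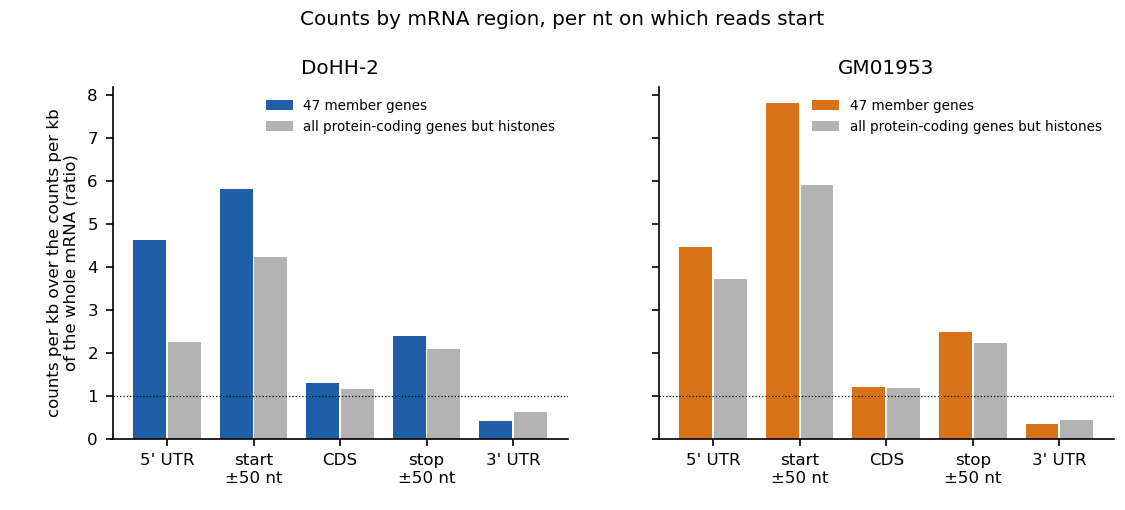
Counts per kb in each region of the mRNA, divided by the counts per kb of the whole mRNA (dotted line at 1), on nt at least 40 nt before an exon's 3′ end. Left, DoHH-2; right, GM01953; coloured bars are the members with a count on the mRNA and grey bars all protein-coding genes without replication-dependent histones; pooled values without error. Member bars are highest around the start codon (5.81 in DoHH-2 and 7.80 in GM01953) and lowest in the 3′ UTR.

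Single members differed widely in where their counts lay. A member was given a dominant region when 1 region held at least 50% of the summed densities (counts per nt of the 5 regions) and the mRNA had more than 20 counts, which 45 members had in DoHH-2. The 5′ UTR was dominant in 12 of 45 members (26.7%), beside 11.9% of all protein-coding genes, and the start codon in 6 (13.3%), beside 18.3%. No region was dominant in 27 members (60.0%), beside 60.6%, and the CDS, stop codon and 3′ UTR were dominant in 0 members, beside 1.81%, 4.29% and 3.14%. The 12 members with a dominant 5′ UTR were SNRPN, SNRPD3, SNRPG, PRPF8, PRPF38A, PRPF38B, PRPF39, PRPF19, LSM8, LSM1, LSM10 and LSM14A. PRPF8 was at the limit, with 50.1% of the summed densities on 14 of 437 mRNA counts, while 396 lay in the CDS. On readable nt PRPF8 had no dominant region. The 6 with a dominant start codon were SNRPE, SNRPB2, SF3B1, SF3B2, LSM11 and LSM14B. On readable nt alone these numbers were 8 for the 5′ UTR and 12 for the start codon, beside 10.4% and 21.1% of all genes, so that the choice between these neighbouring regions rested on how exon ends were treated. In GM01953, 14 members had enough counts, and the 5′ UTR was dominant in 2 (beside 23.9%), the start codon in 3 (beside 24%), the CDS in 1 (beside 7.36%), the stop codon in 2 (beside 10.9%) and no region in 6 (beside 29.4%).

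**Figure D3:**
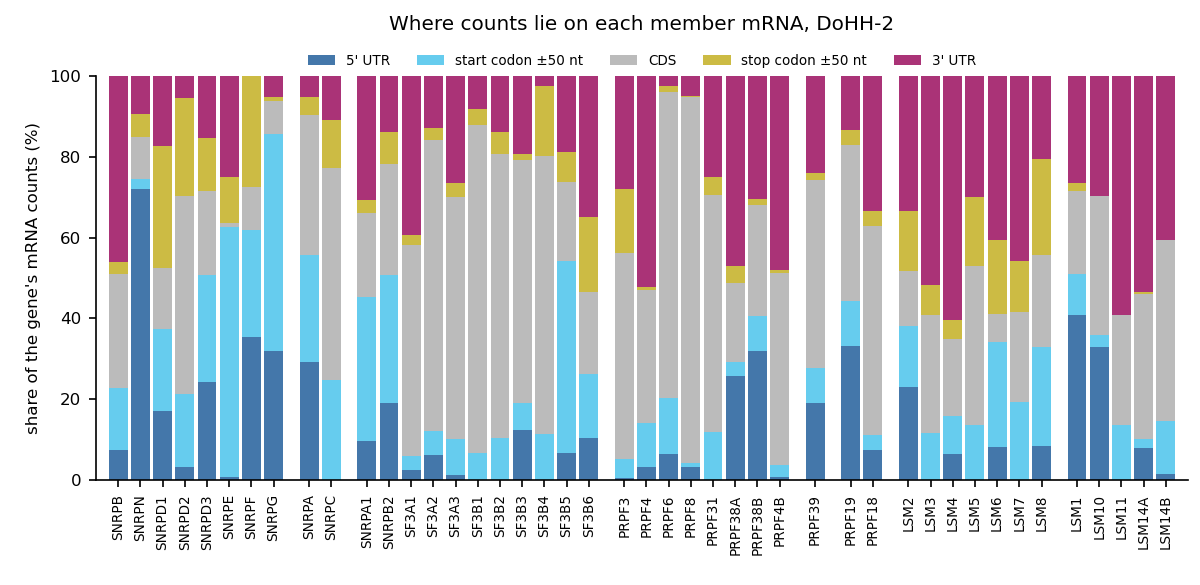
Share of each member's mRNA counts in 5 regions in DoHH-2 (percent of the gene's counts on the MANE Select mRNA), for 44 of the 45 members with more than 20 counts, in order of role (gaps). SNRPG has 53.7% of its counts around the start codon and SNRPE 61.8%, while PRPF8 has 90.6% in the CDS and LSM4 60.3% in the 3′ UTR.

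Among the Sm genes, SNRPG and SNRPE had most of their counts close to the start codon, while SNRPD2 had 49.1% of its counts in the CDS. SNRPG had 123 of 229 mRNA counts around the start codon and 73 in the 5′ UTR, and a single stretch of 30 nt that began 57 nt before the start codon held 144 counts (62.9%). In GM01953 a stretch of 30 nt that began 37 nt before the start codon of SNRPG held 11 of 13 counts. The stretches of the 2 cell lines overlapped. The start codon of SNRPG lies at nt 92 of its mRNA, and nt 83 to 145 were not readable. In DoHH-2 nt 71 to 160 held 0 counts, so its counts around the start codon all lay 5′ of it. SNRPE had 170 of 275 counts around the start codon, and 136 (49.5%) lay in a stretch of 30 nt that began 30 nt before it. The start codon of SNRPE lies at nt 62, and nt 75 to 141 were not readable. SNRPF had 149 of 422 counts in the 5′ UTR, with 112 in the start codon region and 116 in the stop codon region, and 15 of its 26 counts in GM01953 lay in a stretch of 30 nt that began 64 nt before the start codon. Because exon 1 of SNRPF ends close to the start codon, nt 85 to 124 of its mRNA were not readable, and the highest position, just after the start codon, came from reads that began in exon 2.

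SNRPB had the opposite end as its highest place. In DoHH-2, 136 of its 633 mRNA counts (21.5%) lay in a stretch of 30 nt that began 221 nt after the stop codon, and 46.0% of its counts were in the 3′ UTR. In GM01953, 18 of its 34 counts were around the start codon and 6 in the 3′ UTR. SF3B1 and PRPF8, which have long coding sequences, had most of their counts in the CDS, with 544 of 671 and 396 of 437. Within SF3B1, a stretch of 30 nt that began 100 nt after the A of the start codon held 59 counts (8.79%), and the start codon region held 45.

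**Figure D4:**
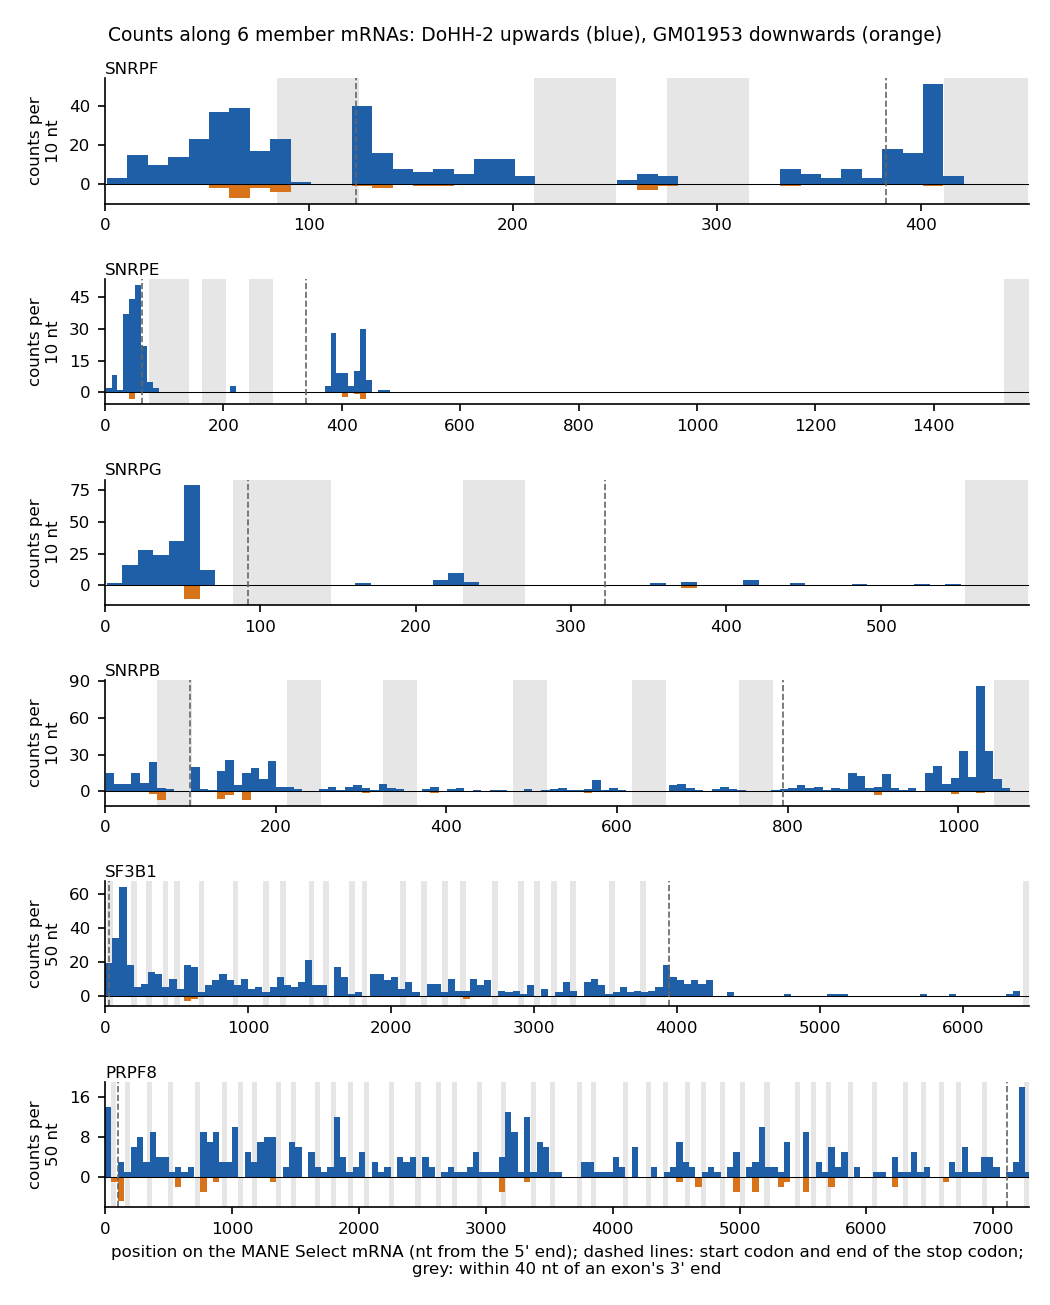
Counts along the MANE Select mRNA of 6 members in steps of 10 nt (SNRPF, SNRPE, SNRPG, SNRPB) or 50 nt (SF3B1, PRPF8), DoHH-2 upwards in blue and GM01953 downwards in orange, with dashed lines at the start codon and the end of the stop codon and grey where nt lie within 40 nt of an exon's 3′ end. SNRPG and SNRPE have their tallest bars before or at the start codon, SNRPB at the 3′ end, and SF3B1 and PRPF8 have bars over the whole CDS.

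Around the start codon, the members' counts in DoHH-2 were highest 5′ of it. The steps of 10 nt from 80 to 31 nt before the A of the start codon stood between 6.10 and 9.35 times the members' mean over the mRNA, with the highest value at 70 to 61 nt before it. The step that begins at the A stood at 5.32 times. From 140 nt after the A onwards the steps stood between 1.41 and 1.85 times. Over all coding genes without histones, the steps from 80 to 31 nt before the A stood between 3.89 and 4.46 times. The profile of members in DoHH-2 was thus steeper before the start codon and lower than the background from 110 nt after it. In GM01953 the highest step of members lay at 40 to 31 nt before the A, at 18.2 times on 36 counts, beside 6.15 times over all coding genes without histones. The profile weights genes by their counts, was not corrected for exon ends and was not computed without the Sm genes.

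**Figure D5:**
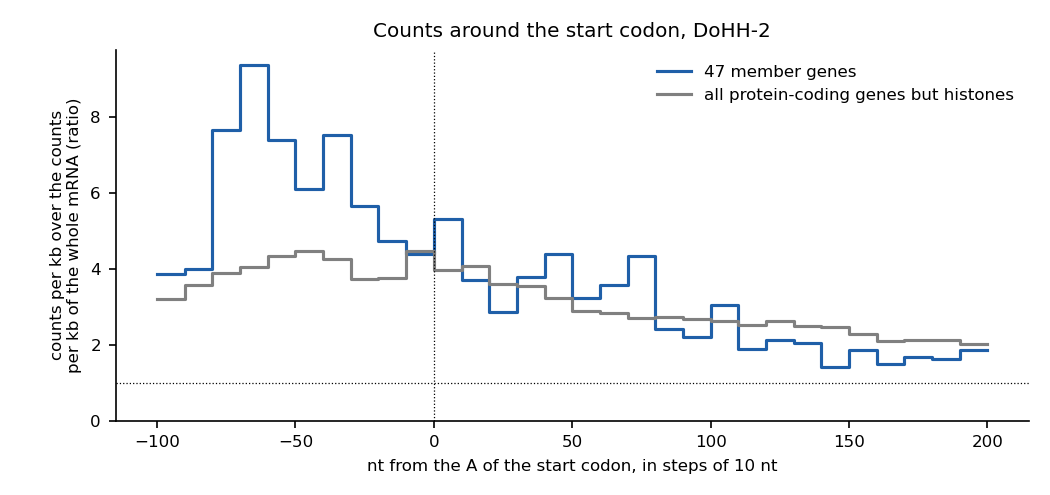
Counts per kb in steps of 10 nt around the A of the start codon (0 on the x axis) in DoHH-2, divided by the counts per kb of the whole mRNA, for the 47 members (blue) and all protein-coding genes without replication-dependent histones (grey); pooled values without error. The members reach 9.35 at 70 to 61 nt before the start codon, where the grey line stands at 4.03.

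After the stop codon, counts often filled only the first part of the annotated 3′ UTR. Of 34 members with at least 20 counts there in DoHH-2, 20 had an annotated 3′ UTR of at least 1000 nt, and in 14 of these 90% of the counts lay in less than 50% of its length. The same share was not computed over all protein-coding genes, so it cannot be called particular to the members. LSM8 is the extreme, with 90% of 26 counts within 169 nt of a 3′ UTR of 12033 nt. The same limit was 191 nt of 3006 for LSM3, 99 nt of 1220 for SNRPE, 178 nt of 1559 for SNRPB2, 207 nt of 1879 for LSM6 and 580 nt of 4382 for SNRPD1. In GM01953, 5 of 5 counts of LSM8, 7 of 9 of LSM3, 6 of 6 of SNRPE, 14 of 17 of LSM6 and 4 of 8 of SNRPD1 lay within the limit set in DoHH-2, and SNRPB2 had 0 counts there. PRPF4B and SF3A3 had counts along nearly the whole 3′ UTR (92.2% and 97% of its length). Values per kb of the 3′ UTR and of the whole mRNA therefore depend on the annotated end, and which 3′ ends these cells use was not tested.

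The cross-linked nucleotide of member mRNAs was a T (U in the RNA) in 41.5% of DoHH-2 counts (40.5 to 42.4) and 45.1% of GM01953 counts (41.3 to 48.8), while T made up 26.9% of the same transcripts. A was the least frequent, with 11.7% and 8.30% of counts in DoHH-2 and GM01953 against 28.1% and 28.3% of the transcripts. All protein-coding genes had T in 42.3% and 39.8% of counts, so that the members' share lay close to that of all genes in DoHH-2 and above it by more than the counting error in GM01953. The excess was local: at 5 to 10 nt from the cross-link, T stood at 25.6% in DoHH-2 and at 23.9% in GM01953. The nt directly before and after the cross-link were T in 39.6% and 44.7% of counts in DoHH-2. UV light itself joins protein to U more readily than to other bases, and the part of this in the values was not tested. Of the 8 windows printed above, SNRPF, SNRPE, SF3B1, SF3B5 and LSM3 have a T at the cross-link.

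Of the GM01953 counts on members, 45.0% (41.5 to 48.6) lay on a nucleotide that also had a count in DoHH-2, beside 43.4% over all protein-coding genes. Within 3 nt the shares were 70.2% (66.9 to 73.4) and 58.6%. Since a deeper table covers more positions on genes with many counts, these shares are a description of overlap at these depths. The highest mRNA position was counted in the other cell line for 5 of 47 members when chosen in DoHH-2 and for 22 of 44 when chosen in GM01953. These shares were not computed over all protein-coding genes, and the cell lines differ in depth, so they too only describe the overlap.

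Introns took 7.08% of the members' counts in DoHH-2 (6.62 to 7.56) and 8.83% in GM01953 (6.95 to 11), beside 14.2% and 15.4% over all protein-coding genes. With positions of FDR below 0.05 alone the members' share was 1.24% of 7077 counts in DoHH-2 and 8.77% of 456 counts in GM01953. The shares of all protein-coding genes at this FDR are not given here. PRPF3 had the most intron counts of a member in DoHH-2 (94 of 344). In GM01953, 11 of the 18 counts of PRPF4B lay in an intron, all at a single position with an FDR below 0.05. This position is thus part of the 8.77%.

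The pathway holds further genes that the naming rule does not take, and 36 of them were listed by function, among them the U1 protein SNRNP70, the U5 helicase SNRNP200, the branch point and 3′ splice site factors SF1 and U2AF2, and factors of activation and catalysis. The rule for bound genes took 28 of them in DoHH-2 (77.8%) and 4 in GM01953 (11.1%). Their median was 137 counts in DoHH-2 and 7.5 in GM01953, beside 218 and 14 for members. SF1 had the most counts with 643 in DoHH-2 (594 to 695) and 54 in GM01953, a ratio of 0.979 (0.741 to 1.32). U2AF2 had 625 (577 to 676) and 59, a ratio of 0.871 (0.666 to 1.16), and SNRNP200 had 550 (505 to 598) and 33, a ratio of 1.37 (0.964 to 2.01). Of the 11 with enough counts for a ratio, 1 was more than 2 times higher in DoHH-2 and 0 in GM01953. This gene was CDC5L (2.67, 1.34 to 6.26), named after its value was seen. Only its DoHH-2 value (260, against 8 for GM01953) passed the limit, so the filter in part fixed its high ratio. Around the start codon the 36 genes had 7.42% of their 5766 mRNA counts in DoHH-2 (6.76 to 8.13), and in the 5′ UTR 5.15% (4.59 to 5.75). Both shares were below the values of members and of all coding genes without histones. U2AF1 had 4 and 0 counts. GRCh38 carries a near-identical copy of this gene, so its value is uncertain.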

How the data were processed

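Per the study's methods, the authors used BBMap's dedupe tool to remove PCR duplicates and Je to demultiplex, trimmed adapters, used HiSat2 for mapping to GRCh38, pooled the replicates of each cell line and called cross-link positions with iCount. The submitters' processing notes name HISAT2 and GRCh38. Versions and the annotation release are not given in the sources used here. The deposited counts are whole, unnormalized cDNA counts per position. The deposited FDR, a p-value adjusted by the authors' peak caller, compares the count around a position with permuted positions in the gene.

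Each position was counted once per gene, and its coordinate, counted from 0 in the tables, was raised by 1. The cross-link is the nucleotide before the read start. Transcripts and gene types came from GENCODE release 44. Python 3.11.15, pandas 2.3.3, NumPy 2.4.6, SciPy 1.17.1, numba 0.67.0 and matplotlib 3.10.9 were used. Sequence that occurs more than once in the genome was found from words of 31 nt, with 3.55% of member counts in DoHH-2 on such words. The placement and region steps were tested on simulated data. Totals of 2033156 and 167197 counts set the precision, and 0 counts allow 3.

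Every member could be named, by role. Full values were given for the 5 members with the most counts in each cell line, the 3 highest and 3 lowest ratios with at least 20 counts in GM01953, the 8 highest mRNA positions, and 3 of the other spliceosome genes. Values of 1 member on its own, and of the members without it, are not reported here, while all sums over members include it. Members and lists were chosen with earlier results of these data known. Alternatives covered the FDR and count thresholds, width of codon regions, choice of transcript, positions counted once, histone genes, repeated sequence and depth.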

Additional observations from a re-analysis of the deposited data

Results flagged for a closer look

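Processed pseudogenes whose names derive from members were outside the set and had counts. There were 16 of them, with 70 counts in DoHH-2 and 11 for GM01953, and those above the limit of 3 counts that a count of 0 allows are given here. In DoHH-2, SNRPEP4 had 15 counts, LSM3P3 had 13, SNRPFP1 had 12, SNRPGP10 had 6 and SNRPEP2 had 4. In GM01953, SNRPGP15 had 8 counts, against 3 in DoHH-2. Of the 70 counts in DoHH-2, 42 lay on sequence of 31 nt that occurs more than once in the genome, as did 63 of the 285 counts of SNRPE and 46 of the 218 counts of LSM3. Reads of the parent mRNAs and of the pseudogenes cannot be told apart there.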

How the results depend on the processing

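No paired analysis was possible because the replicates of each cell line are pooled in 1 table, and for the same reason no replicate was left out. No value here has an error between cultures, GM01953 has 167197 counts, and 33 members have too few there to describe regions. Of 86 alternative values, 37 stayed within the counting interval of the main value, or within 1.5 times for counts of genes, and 49 moved. The cause was not tested except where stated.

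The members' CPM in DoHH-2 were 7969 with FDR below 0.05, 6397 with each position once, 5923 with positions of 1 gene, 5979 on unique words of 31 nt and 6821 without histone genes, against 5785. Those of GM01953 were 5977 with each position once, 5246 on unique words and 5265 without histone genes, against 4743. The summed ratio of 1.22 was 1.63 with FDR below 0.05 and 1.07 with each position once. Members more than 2 times higher in DoHH-2 or in GM01953 numbered 4 and 2 of 22. They were 8 and 2 of 16 with FDR below 0.05 (beside 27.8% and 36.7% of all genes), 1 and 0 of 7 with each position once (20.5% and 24.8%), and 1 and 0 of 3 with at least 50 counts (19.9% and 19.3%).

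The number of members bound in GM01953, 7 of 47, was 16 with no FDR threshold, 3 with FDR below 0.01 and 0 with more than 50 counts, beside 14.7%, 6.12% and 1.9% of all genes. In DoHH-2 it was 15 with no FDR threshold after thinning to the GM01953 total, beside 14.9%.

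Shares in DoHH-2, in order from the 5′ UTR to the 3′ UTR, were 14.6%, 7.29%, 46.5%, 3.99% and 27.6% with codon regions of 25 nt to each side, which are narrower by construction. They were 9.72%, 14.2%, 38.8%, 7.40% and 29.9% on the longest coding transcript. With FDR below 0.05 they were 12.3%, 19.7%, 34.3%, 9.28% and 24.4%, and with each position once 8.31%, 11%, 48.2%, 7.47% and 25%. The start codon share in GM01953 was 10.0% with narrow regions and 25.6% with FDR below 0.05.

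Dominant regions in DoHH-2 (12 for the 5′ UTR, 6 for the start codon, 27 with none) became 1, 2 and 42 at 70% of the summed densities. With FDR below 0.05 the start codon was dominant in 12 members and none in 14. On readable nt, an alternative chosen after seeing the data, the start codon was dominant in 12.

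The share of GM01953 counts on DoHH-2 positions was 70.2% within 3 nt. The intron share in DoHH-2 was 9.99% with each position once and 1.24% with FDR below 0.05, and in GM01953 these were 7.89% and 8.77%. Further alternatives chosen after seeing the data gave T at 38% of cross-links in DoHH-2 with each position once, and 7 other spliceosome genes bound in GM01953 with no FDR threshold, against 4.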
